A study of Saccharomyces cerevisiae with 24 samples.

Results

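FLO11 (YIR019C) encodes a yeast cell-surface adhesin, and a pair of noncoding transcripts, ICR1 and PWR1, is annotated in the DNA upstream of it. These 3 of the 7126 rows of the count table were taken by their identifiers and by no cut on their measured levels, with earlier results of these data known. RNA sequencing was done on cells of strain CEN.PK, a laboratory strain of Saccharomyces cerevisiae. The rph1Δ cells lack Rph1, a demethylase that acts on histone H3 lysine 36 (H3K36), and the set2Δ cells lack Set2, the methyltransferase for the same lysine. In the H3K36A cells, per the labels, that lysine is changed to alanine in both H3 genes, HHT1 and HHT2, and WT cells carry none of these changes. Each genotype was sampled in log phase in the rich medium YPL (0 h) and, once washed and transferred, after 1 h and 3 h in the minimal medium SL. Every one of the 12 groups has 2 libraries. The labels do not say whether the 2 libraries of a group came from separate cultures, so p-values reflect the spread between these samples alone, nor do they say how many clones of each mutant were used.

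Flo11 is a glycoprotein of the cell wall through which yeast cells stick to surfaces and to each other, and it is needed for invasive growth, for filaments and for biofilms. Its upstream region is among the longest in the yeast genome and receives signals from the filamentation MAP kinase, protein kinase A and glucose repression pathways. ICR1 is read from far upstream, on the strand of FLO11 and across its promoter, and is known as a repressor of FLO11 in cis. PWR1 is read from the other strand and is known to oppose ICR1, with the regulators Flo8 and Sfl1 acting on the choice between these states. Set2 travels with elongating RNA polymerase II, and methylated H3K36 is known to hold down transcription that starts inside transcribed regions.

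All 3 transcripts lie on chromosome IX of build sacCer3. FLO11 covers 389572 to 393675 on the minus strand (4104 bases), ICR1 covers 393884 to 397082 on the same strand (3199 bases), and PWR1 covers 395999 to 396939 on the plus strand (941 bases). ICR1 starts 3407 bases upstream of the FLO11 start and ends 208 bases before it. PWR1 lies wholly inside ICR1, from 2324 to 3264 bases upstream of FLO11, and is opposite 29.4% of ICR1. The 3 start regions, from 250 bases before to 50 bases after each annotated start, are shown because they are the DNA from which this layout of overlapping transcripts is read, and the capitals mark a match to a motif searched. The FLO11 window (chrIX:393626-393925, minus strand) has TATAAA with its first base at -99, counted from the annotated start, and its first bases are the end of ICR1. The ICR1 window (chrIX:397033-397332, minus strand) has a Tec1 motif, CATTCT, on the opposite strand at -30. The PWR1 window (chrIX:395749-396048, plus strand) has TATAAA on the opposite strand at -47, and this window is itself DNA transcribed as ICR1. The sequences are those of the S288C reference (RefSeq, R64) and those of CEN.PK may differ.
FLO11: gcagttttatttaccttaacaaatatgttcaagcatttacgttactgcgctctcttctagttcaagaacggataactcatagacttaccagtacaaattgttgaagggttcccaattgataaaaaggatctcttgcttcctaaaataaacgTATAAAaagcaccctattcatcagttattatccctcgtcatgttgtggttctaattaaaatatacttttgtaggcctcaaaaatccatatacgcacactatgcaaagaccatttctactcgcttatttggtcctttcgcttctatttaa
ICR1: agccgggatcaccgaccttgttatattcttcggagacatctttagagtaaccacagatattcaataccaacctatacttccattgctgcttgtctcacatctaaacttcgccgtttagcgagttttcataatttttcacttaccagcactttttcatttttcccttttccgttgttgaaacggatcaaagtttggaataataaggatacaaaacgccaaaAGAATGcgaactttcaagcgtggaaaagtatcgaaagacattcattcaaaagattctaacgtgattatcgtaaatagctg
PWR1: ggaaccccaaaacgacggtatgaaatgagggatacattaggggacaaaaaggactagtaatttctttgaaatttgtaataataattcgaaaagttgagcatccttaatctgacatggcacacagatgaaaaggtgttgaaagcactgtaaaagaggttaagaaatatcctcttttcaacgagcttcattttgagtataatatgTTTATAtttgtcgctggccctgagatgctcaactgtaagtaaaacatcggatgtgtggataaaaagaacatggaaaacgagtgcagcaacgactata

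**Figure D1:**
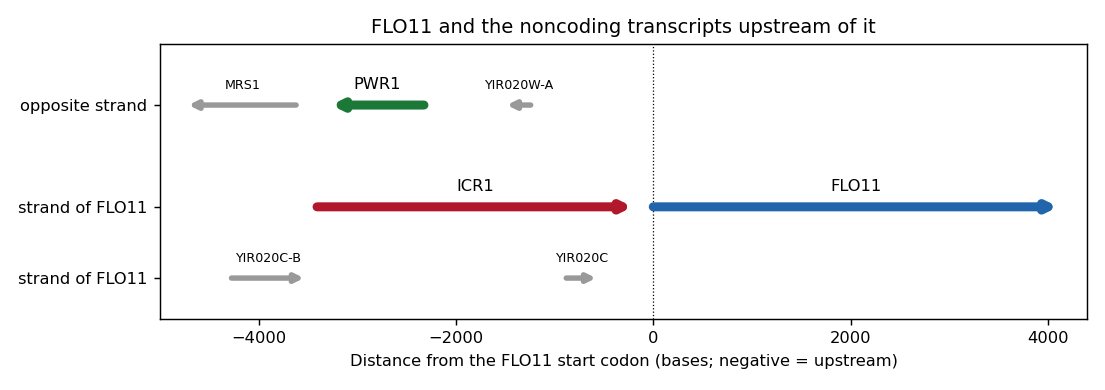
Map of the region, with distance from the FLO11 start codon in bases on the horizontal axis and the strand on the vertical axis. PWR1 sits opposite the far end of ICR1, 2324 to 3264 bases upstream of FLO11, and ICR1 ends 208 bases before FLO11.

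Motifs were searched on both strands. TATAAA was present in 45.2% of 6001 windows of the same length at gene starts, and the Tec1 motif CATTCT in 19.2%. The Tec1 motif CATTCC (10.9% of windows), the Ste12 motif TGAAACA (7.5%) and the Gcn4 motif TGACTC (8.0%) had no match in the 3 windows. The whole stretch of 3618 bases between FLO11 and its upstream neighbour MRS1 held 5 matches to CATTCT and 4 to CATTCC, and 14.5% and 9.2% of 5990 regions of that length upstream of genes held as many. It held 1 match to TGAAACA, 1 to TGACTC and 3 to TATAAA, numbers found or exceeded in 62.8%, 68.2% and 83.5% of those regions.

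Library totals ranged from 6623458 to 7677684 counts. The deleted genes checked the labels, with 8 RPH1 counts over the 6 rph1Δ libraries against 3336 over the 6 WT libraries, and 0 SET2 counts over the 6 set2Δ libraries, which allows up to 3, against 1641 in WT. HHT1 and HHT2 held 5 and 2 counts over the 6 H3K36A libraries, against 16771 and 23721 in WT, and the sources used here do not say how the altered H3 is encoded. The changed residue and the loss of reads from these genes cannot be told apart in any H3K36A result below. The rph1Δ libraries also differed in mating type. HMRA1 had 0 counts in each of the 6 rph1Δ libraries, against 35 to 118 in WT libraries, and the summed level of 4 alpha-specific genes was 267 to 4160 CPM in rph1Δ libraries, against 25.3 to 82.1 CPM in WT libraries. That sum was carried mainly by MF(ALPHA)1, the alpha-factor gene, with 1278 to 22771 counts in rph1Δ libraries against 6 to 19 in WT. STE3, the a-factor receptor gene, had 198 to 3705 counts in rph1Δ against 44 to 64 in WT. STE3 also lay below WT in set2Δ (3 to 14 counts) and H3K36A (3 to 11 counts). The summed level of the 4 alpha-specific genes there was 29.3 to 87.7 CPM in set2Δ and 27.5 to 85.7 CPM in H3K36A. In rph1Δ at 0 h, MF(ALPHA)2 and SAG1 were called higher than WT (9.50 and 3.33, edgeR adjusted p = 1.35e-18 and 6.28e-16). MF(ALPHA)2 was not called in rph1Δ at 1 h or 3 h (1.69 and -0.18, edgeR adjusted p = 0.205 and 0.895). SAG1 was called lower in rph1Δ at 1 h (-0.39, 0.0307) and not called at 3 h (0.09, 0.689). MF(ALPHA)2 was called higher at 1 h and 3 h in set2Δ (2.335, 0.0155, and 1.80, 0.0062) and in H3K36A (3.00, 0.00108, and 1.73, 0.00916). For 7 a-specific genes the sums were 30.7 to 89.3 CPM in rph1Δ and 208 to 526 CPM in WT libraries. Of these, STE6 was not called in rph1Δ at 1 h or 3 h (-0.02 and -0.06, edgeR adjusted p = 0.959 and 0.829). Loss of Rph1 and mating type cannot be told apart in any rph1Δ result below. In all genotypes, fewer cells with a transcript and less of it per cell cannot be told apart.

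Whether the counts kept the strands apart decides whether ICR1 and PWR1 can be read separately. Of 92 features nested in a gene of the opposite strand, the median held 37.5 counts over the 24 libraries, and its density per base was 2.06% of that of its host (0.650% for hosts of at least 20000 counts). YAL004W, which lies inside the highly expressed SSA1, held 163 counts against 880879 for SSA1, or 0.0551% of its density. The counting therefore kept the strands apart. PWR1 held 300 counts against 2630 for ICR1, which is 38.8% of the density of ICR1. All 19 features nested on the same strand as their host held 0 counts, among them YIR020C, which shares 303 bases with ICR1 and was at 0 in all 24 libraries. The sources used here do not say how reads shared by such features were counted, so these counts of 0 do not show that a transcript is absent. If such reads were dropped, the FPKM of ICR1, which uses its full length of 3199 bases, is too low in every library.

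In every library FLO11 had the highest FPKM of the 3 transcripts but one, rph1Δ at 1 h replicate 2, where it had 6.62 FPKM and ICR1 7.77 FPKM. In rph1Δ at 1 h replicate 1, FLO11 (8.28 FPKM) and ICR1 (8.07 FPKM) were close. FLO11 ranged from 6.62 to 151 FPKM (189 to 4294 counts), ICR1 from 2.79 to 8.44 FPKM (62 to 198 counts) and PWR1 from 0.15 to 5.55 FPKM (1 to 39 counts). All 3 passed the filter on low values. The orders and overlaps of libraries given here are on FPKM, which is scaled by library totals. In places they differ from those scaled by TMM, as in the tests. FLO11 was highest in set2Δ cells at 0 h and lowest in rph1Δ cells at 1 h, and only 3 of the 11 neighbouring pairs in the order of its 12 group levels had overlapping libraries. ICR1 was highest in rph1Δ cells at 1 h and lowest in WT cells at 3 h, with 8 of 11 neighbouring pairs overlapping. Scaled by TMM, its WT libraries at 3 h (10.62 and 11.83 CPM) were not below those of rph1Δ at 0 h (11.41 and 10.59 CPM). PWR1 was highest in set2Δ cells at 0 h and lowest in rph1Δ cells at 3 h, with 7 of 11 overlapping.

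**Figure D2:**
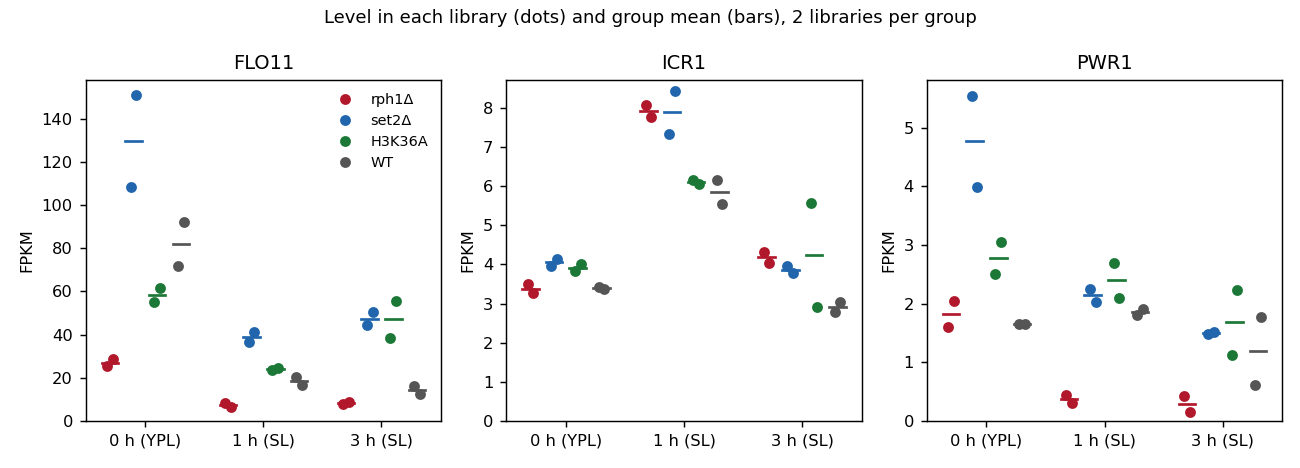
FPKM of FLO11, ICR1 and PWR1 in each of the 24 libraries (dots) with the group mean (bars), by time and genotype, on linear axes from 0. FLO11 was lower at 1 h than at 0 h in every genotype, while ICR1 was higher at 1 h.

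In WT cells, FLO11 fell within the first hour in minimal medium and stayed low. It had 72.0 and 92.0 FPKM at 0 h, 20.2 and 16.6 FPKM at 1 h, and 16.1 and 12.6 FPKM at 3 h. Both libraries of 1 h and both of 3 h lay below both of 0 h, and in FPKM both of 3 h lay just below those of 1 h. Scaled by TMM, those of 3 h (78.6 and 62.7 CPM) overlapped those of 1 h (81.8 and 66.4 CPM). Fold changes are on the log2 scale ± SE from edgeR's quasi-likelihood test, with p adjusted by the Benjamini-Hochberg method over 6503 genes. The change was -2.25 ± 0.16 at 1 h against 0 h (adjusted p = 1.71e-12) and -2.33 ± 0.17 at 3 h against 0 h (1.68e-12), and between 3 h and 1 h it was -0.07 ± 0.18 (0.767). The shift to minimal medium moved most genes. The adjusted p was under 0.05 for 72.1% of all genes at 1 h against 0 h, 69.6% at 3 h against 0 h and 46.1% at 3 h against 1 h, so a call in the first 2 of these comparisons is what most genes show.

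ICR1 in WT cells rose at 1 h and was back at its starting level at 3 h. It had 3.42 and 3.38 FPKM at 0 h, 6.15 and 5.54 FPKM at 1 h, and 2.79 and 3.04 FPKM at 3 h, and both libraries of 1 h lay above the other 4. The rise was 0.68 ± 0.20 at 1 h against 0 h (adjusted p = 0.00382) and the fall -0.71 ± 0.21 at 3 h against 1 h (0.00596), while 3 h against 0 h gave -0.03 (0.934, 95% interval -0.48 to 0.43). Without WT 1 h replicate 1 the fall was -0.62 and its adjusted p 0.0554. At 3 h against 0 h, FLO11 was called lower and ICR1 was not called, and any link between them was not tested. PWR1 in WT cells held 11 and 11 counts at 0 h, 13 and 12 at 1 h, and 4 and 12 at 3 h, and no change over time was called. Of the 3 transcripts, 2 were called at 1 h against 0 h, 1 at 3 h against 0 h and 1 at 3 h against 1 h.

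In set2Δ cells, FLO11 was higher than in WT cells at all 3 times. At 0 h it had 108 and 151 FPKM in set2Δ cells and 72.0 and 92.0 FPKM in WT cells. After 1 h it had 36.8 and 41.4 FPKM in set2Δ cells and 20.2 and 16.6 FPKM in WT cells, and at 3 h 44.5 and 50.4 FPKM in set2Δ cells and 16.1 and 12.6 FPKM in WT cells. The libraries did not overlap at any time, and the difference was 0.63 ± 0.15 (adjusted p = 0.00243) at 0 h, 0.86 ± 0.16 (9.5e-05) at 1 h and 1.48 ± 0.17 (9.6e-08) at 3 h. The call at 0 h was lost without WT 0 h replicate 1 (0.46, adjusted p = 0.0871) and without set2Δ 0 h replicate 2 (0.41, 0.0573). FLO11 and PWR1 were 2 of 3 called at 0 h, where 22.1% of all genes were called, and FLO11 was 1 of 3 at 1 h (47.8%) and at 3 h (48.4%), so at the later times a call as such is common.

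In H3K36A cells, FLO11 started below WT and ended above it. At 0 h it had 55.3 and 61.6 FPKM in H3K36A cells and 72.0 and 92.0 FPKM in WT cells. In minimal medium at 1 h it had 23.8 and 24.6 FPKM in H3K36A cells and 20.2 and 16.6 FPKM in WT cells, and at 3 h 38.7 and 55.8 FPKM in H3K36A cells and 16.1 and 12.6 FPKM in WT cells. The libraries of the 2 genotypes did not overlap at any of the 3 times, with H3K36A the lower at 0 h and the higher afterwards. The difference was -0.55 ± 0.15 (adjusted p = 0.00766) at 0 h, 0.21 ± 0.17 (0.315) at 1 h and 1.49 ± 0.17 (1.2e-07) at 3 h. At 0 h the call was lost without WT 0 h replicate 2 (-0.36, adjusted p = 0.175) and without H3K36A 0 h replicate 1 (-0.47, 0.0772). FLO11 was the 1 of 3 called at 0 h (24.5% of all genes) and at 3 h (46.3%), and none of the 3 was called at 1 h (46.6%).

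In rph1Δ cells, FLO11 was lower than in WT cells at all 3 times. At 0 h it had 25.3 and 28.8 FPKM in rph1Δ cells and 72.0 and 92.0 FPKM in WT cells. At 1 h it had 8.28 and 6.62 FPKM in rph1Δ cells and 20.2 and 16.6 FPKM in WT cells, and at 3 h 7.74 and 8.89 FPKM in rph1Δ cells and 16.1 and 12.6 FPKM in WT cells. The libraries did not overlap at any time. The differences were -1.65 ± 0.16 (adjusted p = 2.81e-08) at 0 h, -1.41 ± 0.19 (4.79e-06) at 1 h and -0.92 ± 0.19 (0.00129) at 3 h. FLO11 was 1 of 3 called at 0 h, when 4.83% of all genes were called, and FLO11 and PWR1 were 2 of 3 at 1 h (15.2%) and at 3 h (28.0%). The mating-type difference given above held in the same libraries, and its part in the FLO11 level was not tested.

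**Figure D3:**
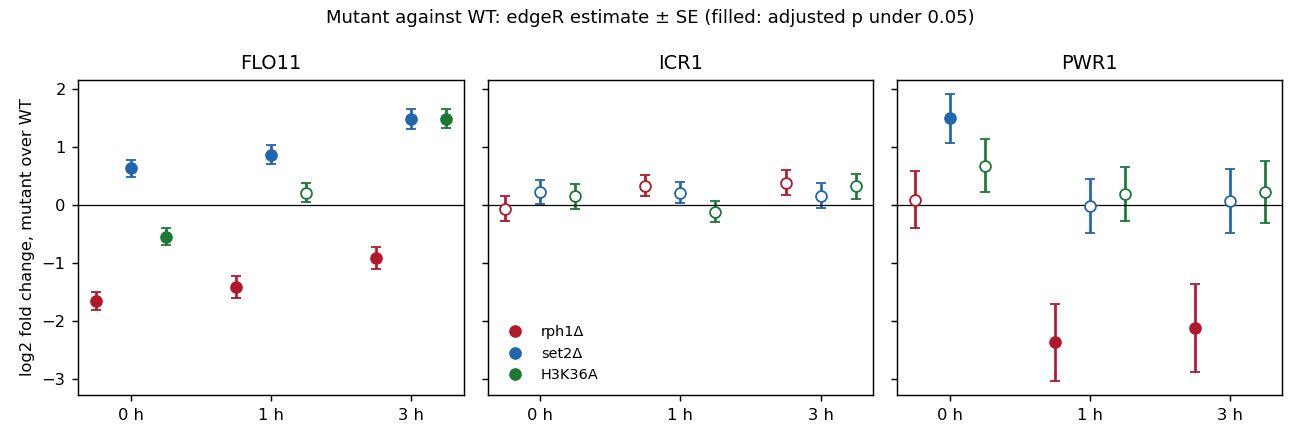
Log2 fold change of FLO11, ICR1 and PWR1 in each mutant over WT at 0, 1 and 3 h, with bars of 1 SE from edgeR, filled where the adjusted p was under 0.05. FLO11 lay below 0 in rph1Δ at each time and above 0 in set2Δ at each time, and it crossed 0 in H3K36A.

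All 3 mutants were set against the same WT libraries, so these comparisons share their controls. Set directly against each other, set2Δ and H3K36A cells differed in FLO11 at the first 2 times. FLO11 had 108 and 151 FPKM in set2Δ and 55.3 and 61.6 FPKM in H3K36A at 0 h, a difference of 1.18 ± 0.15 (adjusted p = 1.78e-05). At 1 h it had 36.8 and 41.4 FPKM in set2Δ and 23.8 and 24.6 FPKM in H3K36A, a difference of 0.65 ± 0.16 (0.00297). At 3 h the libraries overlapped and the estimate was -0.005 ± 0.15 (95% interval -0.32 to 0.31). FLO11 was the only 1 of the 3 transcripts called, at 0 h where 2.72% of all genes were called between these mutants and at 1 h (29.5%), and none was called at 3 h (4.69%).

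FLO11 was also followed over time within each mutant. In H3K36A cells, FLO11 had 55.3 and 61.6 FPKM at 0 h, 23.8 and 24.6 FPKM at 1 h and 38.7 and 55.8 FPKM at 3 h, a fall of -1.49 ± 0.16 at 1 h against 0 h (adjusted p = 4.12e-09) and a rise of 1.20 ± 0.16 at 3 h against 1 h (6.12e-07). At 3 h against 0 h it was -0.29 ± 0.15 (0.0931), which became -0.60 (0.00343) without H3K36A 3 h replicate 2. In set2Δ cells the fall at 1 h was -2.02 ± 0.15 (6.42e-12), and the rise at 3 h against 1 h was 0.55 ± 0.15 (0.00487), a call lost without set2Δ 1 h replicate 1 (0.46, 0.0567) or set2Δ 3 h replicate 2 (0.45, 0.0647). The set2Δ level at 3 h was still -1.47 ± 0.15 against 0 h (2.68e-09). In rph1Δ cells FLO11 fell at 1 h (-2.01 ± 0.18, 2.32e-10) and was -1.59 ± 0.18 at 3 h against 0 h (1.64e-08), with 0.42 ± 0.21 (0.103) between 3 h and 1 h. Over all genes, the share called at 1 h against 0 h, 3 h against 0 h and 3 h against 1 h was 72.6%, 65.6% and 48.9% in H3K36A, 69.0%, 65.7% and 46.3% in set2Δ, and 71.7%, 68.4% and 41.4% in rph1Δ.

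Interaction terms tested whether these courses differed from the WT course. The FLO11 change from 0 h to 3 h exceeded that of WT by 2.03 ± 0.22 in H3K36A (adjusted p = 2.47e-07, 27.2% of all genes called) and by 0.85 ± 0.22 in set2Δ (0.00422, 32.6%), and in rph1Δ the term was 0.74 ± 0.25 (0.0679, 6.77%). The rph1Δ term passed without WT 0 h replicate 1 (0.90, 0.049) or WT 3 h replicate 1 (0.91, 0.0226). From 0 h to 1 h the term was 0.76 ± 0.22 in H3K36A (0.0122, 27.9%), lost without WT 0 h replicate 2 (0.58, 0.0896) or WT 1 h replicate 2 (0.62, 0.0781). It was 0.23 in set2Δ (0.479, 28.1%) and 0.24 in rph1Δ (0.653, 8.52%). FLO11 was the 1 of 3 transcripts called in the 3 interactions that passed.

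ICR1 had a higher level at 1 h than at 0 h in every genotype, and it was not called different from WT in any mutant at any time. At 0 h it had 3.49 and 3.28 FPKM in rph1Δ, 3.97 and 4.15 in set2Δ, 3.84 and 4.0 in H3K36A, and 3.42 and 3.38 in WT. At 1 h it had 8.07 and 7.77 FPKM in rph1Δ, 7.34 and 8.44 in set2Δ, 6.17 and 6.06 in H3K36A, and 6.15 and 5.54 in WT. At 3 h it had 4.32 and 4.04 FPKM in rph1Δ, 3.96 and 3.78 in set2Δ, 5.57 and 2.92 in H3K36A, and 2.79 and 3.04 in WT. All 8 libraries of 1 h lay above all 8 of 0 h, and at 3 h the libraries of rph1Δ and set2Δ lay above both of WT. Those of H3K36A at 3 h, with 135 and 62 counts, lay above both and between them in FPKM. Scaled by TMM, the lower of these (9.65 CPM) lay below both of WT (10.62 and 11.83 CPM). The 9 estimates of mutant over WT ran from -0.11 to 0.39, and the 95% intervals at 3 h were -0.05 to 0.83 in rph1Δ, -0.29 to 0.60 in set2Δ and -0.12 to 0.76 in H3K36A. The largest estimate, in rph1Δ at 3 h, was 0.39 ± 0.21. Changes of ICR1 up to the limits of these intervals were not excluded. The FLO11 change at 3 h was -0.92 in rph1Δ, 1.48 in set2Δ and 1.49 in H3K36A, and any part of ICR1 in it was not tested.

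Over time, ICR1 rose at 1 h against 0 h by 1.07 ± 0.20 in rph1Δ (adjusted p = 2.35e-05) and by 0.66 ± 0.19 in set2Δ (0.00308), and the H3K36A value was 0.42 ± 0.20 (0.0582). At 3 h against 1 h it fell in rph1Δ (-0.65 ± 0.19, 0.00645) and in set2Δ (-0.76 ± 0.19, 0.00182). In H3K36A the value was -0.28 ± 0.19 (0.252), and it was -0.82 (0.00305) without H3K36A 3 h replicate 1. At 3 h against 0 h none of the 3 mutants was called, with 0.42 in rph1Δ, -0.10 in set2Δ and 0.14 in H3K36A, the last of which became 0.51 (0.024) without H3K36A 3 h replicate 2. No interaction with time was called for ICR1, and none of its differences between set2Δ and H3K36A. Scaling by library totals in place of TMM gave ICR1 a call in H3K36A against WT at 3 h (0.56, 0.0378), as did leaving out H3K36A 3 h replicate 2 (0.68, 0.00759).

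PWR1 was rare, and its clearest differences were a higher count in set2Δ cells at 0 h and a lower count in rph1Δ cells in minimal medium. At 0 h it held 10 and 14 counts in rph1Δ, 39 and 26 in set2Δ, 17 and 20 in H3K36A, and 11 and 11 in WT. At 1 h it held 3 and 2 counts in rph1Δ, 15 and 14 in set2Δ, 17 and 14 in H3K36A, and 13 and 12 in WT, and at 3 h 3 and 1 in rph1Δ, 10 and 10 in set2Δ, 8 and 14 in H3K36A, and 4 and 12 in WT. The rph1Δ libraries lay below both WT libraries at 1 h and at 3 h, and the set2Δ libraries lay above both at 0 h. Against WT the set2Δ value was 1.49 ± 0.42 at 0 h (adjusted p = 0.0108), and the rph1Δ values were -2.36 ± 0.66 at 1 h (0.0157) and -2.12 ± 0.76 at 3 h (0.0398). Summed over 6 libraries, PWR1 held 33 counts in rph1Δ, 114 in set2Δ, 90 in H3K36A and 63 in WT.

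These PWR1 calls rested on few counts. The rph1Δ call at 1 h was lost when any 1 of the 4 libraries was left out (-2.62 to -2.15, adjusted p = 0.0621 to 0.0965). At 3 h it was lost without WT 3 h replicate 2 (-1.16, 0.543), rph1Δ 3 h replicate 1 (-2.96, 0.0799) or rph1Δ 3 h replicate 2 (-1.64, 0.198), and under DESeq2 (-2.17, 0.0575). The set2Δ call at 0 h was lost without WT 0 h replicate 1 (1.49, 0.0714), WT 0 h replicate 2 (1.49, 0.0683) or set2Δ 0 h replicate 1 (1.20, 0.114). Over time, PWR1 fell in rph1Δ, with -2.39 ± 0.67 at 1 h against 0 h (0.00237) and -2.48 ± 0.71 at 3 h against 0 h (0.00296). It also fell in set2Δ, with -1.45 ± 0.39 (0.00205) and -1.70 ± 0.42 (0.00102) for the same times. In H3K36A the values were -0.43 (0.377) and -0.72 (0.169). No PWR1 interaction with time was called, the lowest adjusted p being 0.0746 in rph1Δ at 1 h, so a course that differs from WT was not shown.

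The level of FLO11 relative to ICR1 was taken in each library as log2((FLO11 + 1)/(ICR1 + 1)) on FPKM. At 0 h it was 2.55 to 2.80 in rph1Δ, 4.46 to 4.88 in set2Δ, 3.54 to 3.65 in H3K36A and 4.05 to 4.41 in WT. At 1 h it was -0.20 to 0.03 in rph1Δ, 2.17 to 2.18 in set2Δ, 1.79 to 1.86 in H3K36A and 1.43 to 1.57 in WT, and at 3 h 0.72 to 0.97 in rph1Δ, 3.20 to 3.43 in set2Δ, 2.59 to 3.86 in H3K36A and 1.75 to 2.17 in WT. The rph1Δ libraries lay below those of WT and the set2Δ libraries above them at each time, and rph1Δ at 1 h was the group in which the levels of both transcripts per length were about equal. Averaged over times, the ratio was lower than in WT by a log2 difference of -1.42 in rph1Δ (exact two-sided permutation within times, p = 0.00926, the smallest that 216 permutations allow, adjusted over 3 mutants 0.0139) and higher by 0.82 in set2Δ (exact permutation p = 0.00926, adjusted 0.0139). In H3K36A the difference was 0.32 (exact permutation p = 0.444, adjusted 0.444), made of -0.63 at 0 h, 0.32 at 1 h and 1.26 at 3 h. The ratio carries the differences of both transcripts. Mean ICR1 at 1 h was 7.92 FPKM in rph1Δ, 7.89 in set2Δ, 6.115 in H3K36A and 5.845 in WT. At 3 h it was 4.18, 3.87, 4.245 and 2.915 FPKM in the same order of genotypes. Mean FLO11 in that order was 7.45, 39.08, 24.17 and 18.4 FPKM at 1 h, and 8.315, 47.45, 47.22 and 14.33 FPKM at 3 h.

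**Figure D4:**
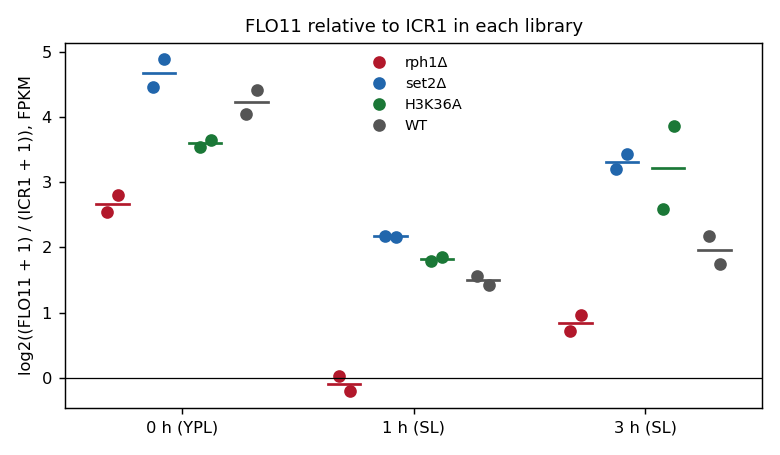
Log2 ratio of FLO11 to ICR1 (FPKM, 1 added to each) in each library (dots) with the group mean (bars), by time. At each time the rph1Δ libraries lay lowest and the set2Δ libraries lay above those of WT, and rph1Δ at 1 h lay close to 0.

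The genes around FLO11 were called about as often as all genes with the change of medium in WT. Of the 21 rows within 10 kb of the 3 transcripts, 19 were tested. Against 0 h in WT, 8 were higher and 6 lower at 1 h, and again 8 and 6 at 3 h, where 72.1% and 69.6% of all genes were called, so these counts show nothing particular to the neighbours. MRS1, which starts 211 bases beyond the ICR1 start and encodes a protein needed for splicing of mitochondrial introns, fell to 5.64 and 10.7 FPKM at 1 h in WT, against 88.9 and 83.1 FPKM at 0 h (-3.52 ± 0.18, adjusted p = 1.76e-15). MRS1 was not called against WT in any mutant at any time, but without WT 1 h replicate 2 it was in set2Δ at 1 h (0.84, 0.013). YAP5, an iron-responsive factor gene on the other side of FLO11, rose at 1 h in WT (2.41 ± 0.13, 4.32e-15) and was lower than WT in H3K36A at 1 h (-0.45 ± 0.11, 0.00146) and in set2Δ at 3 h (-0.43 ± 0.12, 0.00554), the second call being lost without set2Δ 3 h replicate 2 (-0.33, 0.0868). DAL81, a regulator of nitrogen catabolism genes, was higher than WT at 3 h in rph1Δ (0.67 ± 0.18, 0.00735), set2Δ (1.28 ± 0.17, 1.37e-06) and H3K36A (1.05 ± 0.17, 2.97e-05), with the rph1Δ call lost without WT 3 h replicate 2 (0.30, 0.297). Against WT at 0, 1 and 3 h, 0, 0 and 2 neighbours were higher and 0, 0 and 1 lower in rph1Δ, 2, 3 and 1 higher and 1, 6 and 7 lower in set2Δ, and 2, 3 and 2 higher and 2, 2 and 4 lower in H3K36A. The share of all genes called in either direction at those times was 4.83%, 15.2% and 28.0% in rph1Δ, 22.1%, 47.8% and 48.4% in set2Δ, and 24.5%, 46.6% and 46.3% in H3K36A. Nothing particular to the neighbours is read from their counts beside these shares. Leaving out 1 library took the number called in set2Δ to 1 at 0 h (without WT 0 h replicate 1 or 2), to 5 at 1 h (without WT 1 h replicate 1 or set2Δ 1 h replicate 2) and to 5 at 3 h (without set2Δ 3 h replicate 2). It took the 4 called in H3K36A at 0 h to 1 or 2 (without any 1 of the 4 libraries), and the 3 in rph1Δ at 3 h to 1 (without WT 3 h replicate 2).

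Among the neighbours are 4 unnamed rows that lie opposite another gene, and 3 of them held at most 3 counts over the WT libraries and more in set2Δ or H3K36A cells. These 3 were picked out for those counts and passed the filter on low values through the mutant groups in which they are high, so their values are a description with no test, and the neighbours called higher in set2Δ and H3K36A include them. YIR020W-A, opposite ICR1 at 394917 to 395159 on the plus strand, held 8 counts over the 6 rph1Δ libraries, 27 over set2Δ, 36 over H3K36A and 3 over WT, with 95% Poisson intervals, for counting error only, of 3.45 to 15.8, 17.8 to 39.3, 25.2 to 49.8 and 0.619 to 8.77. YIR020C-B, opposite MRS1 at 397215 to 397949 and on the strand of ICR1, held 7 counts in rph1Δ, 23 in set2Δ, 47 in H3K36A (24 of them in 1 h replicate 1) and 3 in WT. YIR023C-A, opposite DAL81, held 1 count in rph1Δ, 27 in set2Δ, 6 in H3K36A and 1 in WT. The H3K36A libraries each had 4 to 10 YIR020W-A counts and the set2Δ libraries 2 to 7, while 5 of the 6 WT libraries had 0. The fourth row, YIR017W-A, lies opposite MET28 and did not share this pattern. It held 49 counts in rph1Δ, 78 in set2Δ, 89 in H3K36A and 71 in WT, with intervals of 36.2 to 64.8, 61.7 to 97.3, 71.5 to 109.5 and 55.5 to 89.6, so that each mutant's interval overlaps that of WT.

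**Figure D5:**
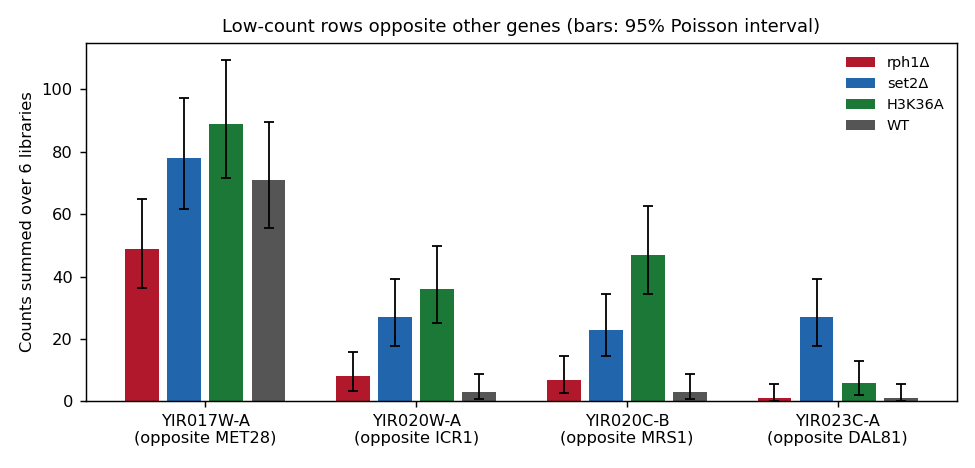
Counts summed over the 6 libraries of each genotype for the 4 unnamed rows near FLO11 that lie opposite another gene, with 95% Poisson intervals as bars of error. YIR020W-A held 27 counts in set2Δ and 36 in H3K36A, against 3 in WT, while the intervals of YIR017W-A overlap between each mutant and WT.

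Most other adhesin genes were higher than WT in set2Δ and H3K36A cells at each time, in H3K36A also at 0 h, when FLO11 was lower than WT, and at 1 h, when FLO11 was not called. Of 6 adhesins (FLO1, FLO5, FLO9 and FLO10, which act in flocculation and adhesion, and FIG2 and AGA1, which act in mating), 5, 5 and 6 were higher than WT at 0, 1 and 3 h in set2Δ, and 5, 5 and 6 in H3K36A, with none lower. The share of all genes called higher was 13.3%, 20.4% and 20.6% in set2Δ and 13.4%, 20% and 18.7% in H3K36A. FLO10 had a mean of 16.5 FPKM in set2Δ, 17.1 in H3K36A and 4.06 in WT at 3 h (1.78 ± 0.16 in set2Δ, adjusted p = 2.55e-09, and 1.84 ± 0.16 in H3K36A, 1.94e-09). FLO1 was higher by 2.95 ± 0.42 in set2Δ (3.09e-06) and 2.49 ± 0.44 in H3K36A (5.93e-05) at 3 h, but FLO1, FLO5 and FLO9 are near-identical in sequence, so their separate levels are uncertain. The adhesin median at 3 h was 1.84 in set2Δ and 1.78 in H3K36A, beside -0.06 and -0.06 over all genes. In rph1Δ, 1, 1 and 2 of the 6 were higher and none lower, with 2.41%, 5.90% and 11.6% of all genes called higher, and AGA1, a mating agglutinin subunit, was the one called at each time (2.10 ± 0.18 at 0 h, 4.39e-09). The rph1Δ call of AGA1 at 1 h (0.58) was lost without WT 1 h replicate 2 (0.46, 0.251) or rph1Δ 1 h replicate 1 (0.41, 0.354) or WT 1 h replicate 1 (0.73, 0.0795), and mating type differed in these libraries. The 2 called at 3 h became 1 without WT 3 h replicate 2 or without either rph1Δ 3 h library.

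Among 11 activators and 9 repressors of FLO11 known from other work, members moved in both directions in WT. At 1 h against 0 h, 4 activators were higher and 3 lower, and 5 repressors higher and 4 lower, beside 37.3% higher and 34.8% lower over all genes. STE12, the factor at the end of the filamentation MAP kinase pathway, fell (-1.54 ± 0.18, adjusted p = 3.63e-08), as did MIT1 (-1.47 ± 0.15, 1.59e-09), while RIM101, a pH-response regulator, rose (1.53 ± 0.07, 3.15e-16), as did MSS11, a partner of Flo8 (1.26 ± 0.16, 6.93e-08). The glucose-repression factors NRG1 (1.81 ± 0.09, 1.01e-15) and NRG2 (1.25 ± 0.21, 5.34e-06) rose, and SOK2, a repressor in the protein kinase A pathway, fell (-1.19 ± 0.17, 3.89e-07). At 3 h against 0 h, 3 activators were higher and 5 lower, and 3 repressors higher and 5 lower, with 35.6% higher and 34.0% lower over all genes. TEC1, the partner of Ste12, was then lower (-1.66 ± 0.13, 1.54e-11), and so was SFL1, the repressor that competes with Flo8 (-1.61 ± 0.18, 1.47e-08). Without WT 0 h replicate 2 or WT 3 h replicate 2, the fall of FLO8 (-0.65 ± 0.22, 0.00951) was not called (-0.51, 0.0964, and -0.38, 0.175).

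FLO8, an activator that is required for FLO11 expression, was higher than WT in both mutants without H3K36 methylation. Its mean was 13.5 FPKM in set2Δ, 14.0 in H3K36A and 7.79 in WT at 0 h, 16.3, 13.6 and 6.39 FPKM at 1 h, and 12.4, 12.1 and 4.35 FPKM at 3 h in the same order of genotypes. The differences were 0.77 ± 0.19 (adjusted p = 0.00365), 1.14 ± 0.19 (1.89e-05) and 1.27 ± 0.21 (1.78e-05) in set2Δ, and 0.78 ± 0.19 (0.00256), 0.93 ± 0.19 (0.000291) and 1.25 ± 0.21 (2.71e-05) in H3K36A, at 0, 1 and 3 h. At 0 h, where FLO11 was higher than WT in set2Δ and lower in H3K36A, FLO8 was higher in both, and without WT 0 h replicate 1 the calls were lost (0.64, 0.0726 in set2Δ and 0.65, 0.0583 in H3K36A). In rph1Δ the FLO8 values were 0.15 ± 0.20 (0.815), 0.11 ± 0.21 (0.789) and 0.43 ± 0.22 (0.145), and without WT 3 h replicate 1 the last was 0.81 (0.0218).

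NRG2 was lower than in WT at 1 h and 3 h, with -1.43 ± 0.20 (adjusted p = 1.87e-06) and -1.07 ± 0.18 (2.4e-05) in set2Δ and -2.61 ± 0.23 (9.29e-10) and -1.23 ± 0.18 (6.59e-06) in H3K36A. Other repressors were higher at 3 h, with SFL1 at 1.25 ± 0.19 (5.83e-06) in set2Δ, 1.17 ± 0.19 (1.94e-05) in H3K36A and 0.80 ± 0.19 (0.00417) in rph1Δ, and SOK2 at 0.84 ± 0.17 (0.00028) in set2Δ, 0.84 ± 0.17 (0.000321) in H3K36A and 0.77 ± 0.17 (0.00233) in rph1Δ. The rph1Δ calls were lost without WT 3 h replicate 2 (SFL1 0.62, 0.0982, and SOK2 0.61, 0.0628), and that of SFL1 also without rph1Δ 3 h replicate 2 (0.65, 0.0558). STE12 was higher at 3 h in set2Δ (0.96 ± 0.20, 0.000398). TEC1 was higher in rph1Δ at 0 h (0.71 ± 0.11, 0.000104) and lower at 1 h (-0.73 ± 0.12, 9.99e-05). MGA1 was higher at 3 h in rph1Δ (1.46 ± 0.37, 0.00557) and H3K36A (1.27 ± 0.38, 0.00745), calls lost when WT 3 h replicate 2 was left out (1.11, 0.122 in rph1Δ and 0.94, 0.11 in H3K36A). Leaving out rph1Δ 3 h replicate 2 (1.18, 0.0684) or H3K36A 3 h replicate 1 (0.99, 0.106) did the same.

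Counted at 0, 1 and 3 h, 1, 0 and 4 of the 11 activators were higher and 1, 3 and 1 lower than WT in rph1Δ, 3, 3 and 6 higher and 1, 1 and 1 lower in set2Δ, and 4, 2 and 6 higher and 0, 3 and 1 lower in H3K36A. Of the 9 repressors, 0, 1 and 5 were higher and 0, 0 and 0 lower in rph1Δ, 0, 1 and 3 higher and 1, 3 and 2 lower in set2Δ, and 0, 3 and 4 higher and 0, 2 and 2 lower in H3K36A. Over all genes, the share called higher at 0, 1 and 3 h was 2.41%, 5.90% and 11.6% in rph1Δ, 13.3%, 20.4% and 20.6% in set2Δ, and 13.4%, 20% and 18.7% in H3K36A. The share called lower at 0, 1 and 3 h was 2.41%, 9.27% and 16.4% in rph1Δ, 8.73%, 27.3% and 27.8% in set2Δ, and 11.1%, 26.7% and 27.6% in H3K36A. Many of these counts hang on 1 library. At 3 h, the activators called were 7 in H3K36A but 3 without WT 3 h replicate 2 or without H3K36A 3 h replicate 1, 7 in set2Δ but 4 without WT 3 h replicate 2 or set2Δ 3 h replicate 2, and 5 in rph1Δ but 8 without WT 3 h replicate 1 and 3 without WT 3 h replicate 2. The 5 repressors called in rph1Δ at 3 h became 0 without WT 3 h replicate 2, or 3 when rph1Δ 3 h replicate 2 was left out. At 0 h, the 4 activators called in set2Δ and in H3K36A became 2 in each without WT 0 h replicate 1. At 1 h, the 5 repressors called in H3K36A became 2 or 3 without any 1 of the 4 libraries, and the 4 in set2Δ became 2 without WT 1 h replicate 1 or set2Δ 1 h replicate 2. Counts of 2 or fewer moved as well, by 1 gene each.

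Signalling and chromatin lists that act on FLO11 had members called in both directions. Over the 9 comparisons of a mutant with WT, 0 to 6 of 11 genes of the cAMP and protein kinase A pathway were called, 1 to 7 of 10 of the filamentation MAP kinase pathway, 0 to 3 of 7 of the Snf1 kinase, 0 to 8 of 13 of the Rpd3L and Rpd3S deacetylases, 0 to 4 of 7 of the Set3 complex and 0 to 5 of 9 of SWI/SNF. Over the same 9 comparisons, 4.83% to 48.4% of all genes were called. Both ranges are pooled, so no count stands beside the share of its own comparison, and nothing particular to these lists is read from their counts. At 0 h in the protein kinase A list, CYR1 was called higher in set2Δ (0.91) and H3K36A (0.79), and PDE2 lower (-0.98 and -0.49). The share of all genes called there was 22.1% in set2Δ and 24.5% in H3K36A. The median log2 fold changes of these 6 lists lay between -0.27 (the Rpd3 list in set2Δ at 1 h) and 0.21 (the protein kinase A list in H3K36A at 0 h).

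Over the 12 group means of log2 CPM, the genes with a standard name most like FLO11 by Pearson correlation were ARN1 (0.94), LIP5 (0.92), YEH2 (0.91), FAA3 (0.91) and SWC3 (0.90). The most like ICR1 were CSM2 (0.93), POP1 (0.93), FRE6 (0.92), CHL4 (0.91) and DUG2 (0.91), and the most like PWR1 were MTW1 (0.92), KTR7 (0.88), ADH4 (0.87), FCY22 (0.85) and RIB7 (0.85). Of 6500 other genes, 5 passed 0.9 with FLO11, 13 with ICR1 and 1 with PWR1. Between the 3 transcripts themselves the correlation was 0.84 for FLO11 with PWR1, -0.51 for FLO11 with ICR1 and -0.34 for ICR1 with PWR1. The 12 means share the change of medium and the libraries, so these values are descriptions.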

How the data were processed

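Counts per gene and FPKM values for the 24 libraries were those the authors deposited in 1 table. The deposited FPKM values equalled count over gene length and library total for 100% of values (tolerance 0.0051), and the deposited counts were whole numbers. Build sacCer3 and the tools HTSeq 0.6.1, HISAT2 2.0.1 and cutadapt 1.9.1 are listed in the submitters' processing notes. The sources used here give no strand setting, which was read from nested features. Positions are from the table, where 6065 of 6079 matched identifiers had the same coordinates in the R64 annotation.

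Samples were grouped by their labels. Counts were tested with edgeR 4.0.16 (quasi-likelihood test, R 4.3.3) with TMM scaling (factors 0.823 to 1.19), with 12 groups fitted together, no covariate and 12 residual degrees of freedom. The test covered the 6503 rows that reached 1 FPKM in 2 or more libraries and left out 623. Calls were made in each of 30 comparisons at an adjusted p under 0.05 (Benjamini-Hochberg over the rows tested). SE is the log2 fold change divided by the square root of F. The FLO11 to ICR1 ratio was tested by exact permutation within times (Python 3.11.15, scipy 1.17.1). The 94 genes of 11 lists (regulators, adhesins, pathways, complexes, mating markers) were counted, with no set test. Named genes were the 3 transcripts, rows within 10 kb, up to 2 highest and 2 lowest called members of each list, and the 5 most similar genes. The FLO8 values that were not called were added for comparison. Alternatives were other scaling, no filter, DESeq2 1.42.0, a replicate block, each library left out and other pseudocounts. Each test was checked on simulated data. The transcripts, lists and tests were chosen with earlier results of these data known.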

Additional observations from a re-analysis of the deposited data

Results flagged for a closer look

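The course of FLO11 over time in the mutants without H3K36 methylation differed from that in WT by the test of the difference itself. From 0 h to 3 h, the log2 change of FLO11 exceeded that of WT by 2.03 in H3K36A cells and by 0.85 in set2Δ cells. From 0 h to 1 h it exceeded that of WT by 0.76 in H3K36A cells. The first value held in every alternative, with 1.73 to 2.29 when 1 library was left out, and the set2Δ value lay between 0.66 and 1.07. The third was not called without WT 0 h replicate 2 (0.58, adjusted p = 0.0896 by edgeR) or WT 1 h replicate 2 (0.62, 0.0781). Both mutants were set against the same WT libraries.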

How the results depend on the processing

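Over the comparisons of a mutant with WT and of WT over time, 306 alternative values of FLO11, ICR1 and PWR1 kept their side of the threshold, 2 became calls and 16 lost one. No member's value changed sign where called. Some values that were not called did, such as FLO11 in WT at 3 h against 1 h (-0.25 to 0.11 with 1 library left out). ICR1 in H3K36A at 3 h was called with library totals (0.56), which moved the median of all genes there by 0.22, and PWR1 in rph1Δ at 3 h was not called by DESeq2 (-2.17). The cause was not tested. Leaving out 1 library gave these ranges where a call changed: FLO11 at 0 h 0.41 to 0.83 in set2Δ and -0.71 to -0.36 in H3K36A, ICR1 at 3 h against 1 h in WT -0.79 to -0.62 and in H3K36A against WT at 3 h -0.22 to 0.68, PWR1 in rph1Δ -2.62 to -2.15 at 1 h and -2.96 to -1.16 at 3 h, and in set2Δ at 0 h 1.20 to 1.74. All 45 alternative values of the FLO11 to ICR1 ratio kept their direction and side. The one named gene to change sign where called was NRG1, in set2Δ against WT at 1 h (-0.21, and 0.0071 with library totals). Replicate numbers did not pair the samples (correlations -0.26 to 0.17 over 66 pairs of groups, 6 over 0.1), and the replicate block changed no call of the 3 transcripts (FLO11 in H3K36A at 3 h 1.47). Activators called in WT at 3 h against 1 h were 10 with library totals and 6 otherwise, beside 46.1% of all genes with TMM. Library totals moved the median of all genes there by -0.27, so nothing particular to the activators is read from these counts. PWR1, at 1 to 39 counts per library, is limited by depth.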
